A study of Caenorhabditis elegans with 20 samples.

Results

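Between the domains that carry H3K27me3 on the autosomes of the worm and the domains that lack it lie stretches where the mark is at an intermediate level. The bins described here are the 1 kb bins of the centres of chromosomes II, III, IV and V in which the wild-type H3K27me3 track, the log2 of immunoprecipitate (IP) over input, lay above -2 and below 0. This rule gave 3736 intermediate bins of the 33486 bins of these centres and of 100269 bins of the nuclear genome. The other bins of the same centres serve for comparison, namely 22380 bins above 0, called marked, and 7150 bins at or below -2, called depleted; a further 220 bins were exactly 0. The wild-type track chose the bins, so its values in them, and in the bins beside them that were called by it, are a description only. The names of these classes refer to the wild type throughout, whatever the level in another strain. No annotation of the genome build of the tracks, WBcel215, was used, so regions are given by position and not by gene.

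Chromatin was taken from young adult worms grown at 20 °C, as MNase-digested total nuclei that are enriched for germ cell nuclei, and was precipitated in its native state. Of the strains that carry the mutation K27M in HIS-72, an H3.3 protein, H3.3K27M had his-72(uge40[K27M]) III and was set against the wild type N2. H3-like K27M had the allele uge68 of his-72, which joins K27M to A87S, A88V, I89A and G90M, and was set against H3-like, whose allele uge67 has these changes without K27M; they turn H3.3 towards the canonical H3 sequence. The strain called mnDp10 H3.3K27M had his-72 (uge40[K27M]) III together with the duplication mnDp10 [umnls31] (X;I) and with unc-3 (e151) X, and was set against the strain called mnDp10, with that duplication and that unc-3 allele but no K27M. For the histone itself, the OLLAS epitope was fused to the mutant protein in H3.3K27M OLLAS (allele uge79 of his-72) and to the normal one in H3.3 OLLAS (allele uge69). H3K36me3 was measured in H3.3K27M and wild type. Each group held 1 library, for which the authors pooled replicates, so an SD between libraries of one group cannot be given.

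Methylation of lysine 27 of histone H3 is the work of the Polycomb complex PRC2, whose catalytic subunit in the worm is MES-2, and the trimethylated form marks repressed chromatin. H3K36me3 marks transcribed genes, in the worm germ line also through MES-4, and it hinders PRC2 on the same histone tail, so the marks occupy largely separate domains. H3.3 is the variant that is placed into chromatin outside replication, and the K27M change turns it into an inhibitor of PRC2, known from childhood gliomas as an oncohistone.

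All 10 tracks could be put on 1 scale, the log2 ratio of IP and input reads recovered from the deposited 100 bp bins and summed over 1 kb. This scale is used below unless the deposited log2 is named. In the intermediate bins the median was 237 to 2749 IP reads and 249.5 to 3107 input reads per bin, with the fewest input reads in the 2 mnDp10 and the 2 H3K36me3 tracks, and between 5 and 33 of the 3736 bins had fewer than 10 input reads in a track. All tracks were scaled to equal read numbers, so a level is relative to the rest of its own track. The genome-wide median of the deposited log2 was -0.84 in H3.3K27M and 0.28 in wild type, and -0.72 in H3-like K27M and 0.23 in H3-like. Levels are therefore first compared with those of other bins of the same strain. The nuclei are a mixture, so fewer nuclei with a mark and less of it per nucleus cannot be told apart.

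The intermediate bins made up 11.8% of the centre bins of chromosome II (840 bins), 14.4% of III (951), 11.7% of IV (1065) and 8.26% of V (880). A border bin was defined as one with a marked bin on one side and a depleted bin on the other. Of the 3736 bins, 782 (20.9%) were of this kind, with 212 on V, 206 on II, 185 on IV and 179 on III. A further 970 lay between a marked and another intermediate bin, 715 between a depleted and another intermediate bin, and 860 inside a run. In 281 bins both neighbours were marked, in 99 both were depleted, and 29 lay beside a bin of exactly 0. Joined end to end, the bins formed 2029 runs, of which 58.3% were 1 kb long and the longest 16 kb. Of these runs, 1331 linked a marked to a depleted bin. The bins just inside the rule had deposited wild-type values of -1.9996 and -0.00036, and those just outside had -2.0002 and 0.00003, so that neither threshold fell into a gap.

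**Figure D1:**
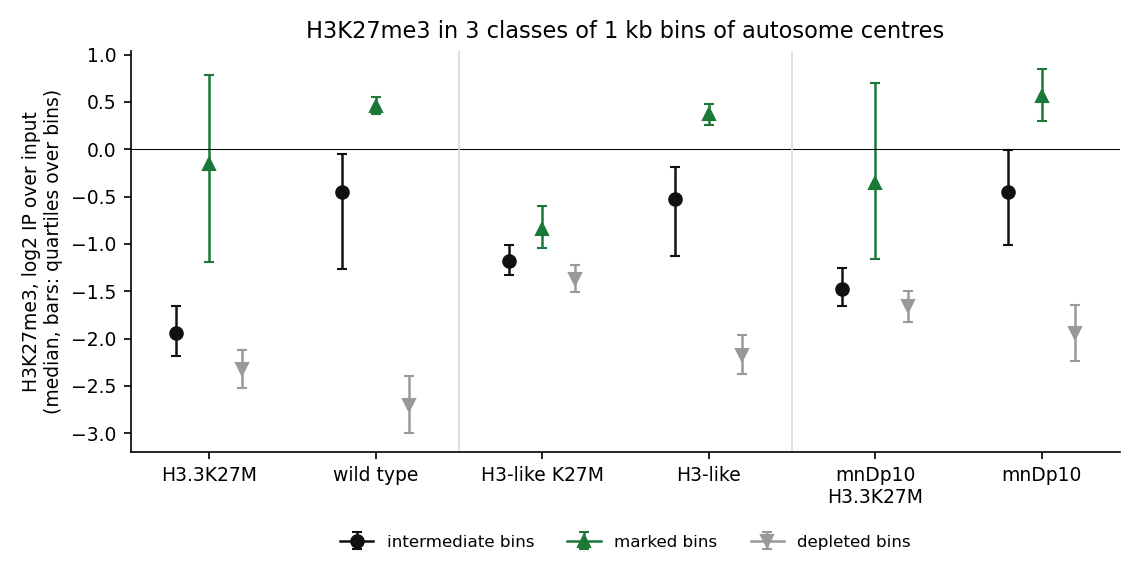
H3K27me3 in the intermediate, marked and depleted 1 kb bins of the centres of chromosomes II to V, as log2 IP over input, for the 3 strains with K27M, each left of its own control. Points are medians and bars are quartiles over bins; the medians of the intermediate bins are -1.95, -1.18 and -1.48 in the strains with K27M, near those of depleted bins, and -0.45, -0.52 and -0.45 in the controls, nearer to those of marked bins.

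On the log2 scale, H3K27me3 in the intermediate bins lay closer to its level in depleted than in marked chromatin in all 3 strains with K27M, and closer to that in marked chromatin in the 3 controls. On the input-subtracted scale the strains did not separate in this way. The median was -1.18 in H3-like K27M, -1.95 in H3.3K27M and -1.48 in mnDp10 H3.3K27M, against -0.52 in H3-like, -0.45 in wild type and -0.45 in the mnDp10 strain. In the depleted bins of the same strains the median was -1.37 in H3-like K27M, -2.32 in H3.3K27M and -1.66 in mnDp10 H3.3K27M, against -2.17 in H3-like, -2.71 in wild type and -1.94 in the mnDp10 strain. The intermediate bins thus exceeded the depleted bins by 0.37, 0.19 and 0.18 on the log2 scale in H3.3K27M, H3-like K27M and mnDp10 H3.3K27M, against 2.26 in wild type, 1.65 in H3-like and 1.49 in the mnDp10 strain. Set on a scale on which the depleted median of a strain is 0% and its marked median 100%, the intermediate bins stood at 36.2% in H3-like K27M, 17.4% in H3.3K27M and 13.7% in mnDp10 H3.3K27M. The controls stood at 71.3% (wild type), 64.8% (H3-like) and 59.5% (mnDp10). The mean was 22.4% ± 12.1 with K27M and 65.2% ± 5.92 without it (SD, n = 3 strains each). Without the pair that holds the wild type, which chose the bins, it was 24.97% ± 15.9 and 62.1% ± 3.77 (SD, n = 2 strains each). This measure does not depend on where the zero of a track is set, but it depends on the scale. On the input-subtracted signal (scaled IP reads minus scaled input reads) the position was 48.5% in H3-like K27M, 21.4% in H3.3K27M and 20.0% in mnDp10 H3.3K27M, against 47.4% in H3-like, 52.8% in wild type and 47.8% in the mnDp10 strain. There H3-like K27M lay above its control and above the mnDp10 strain, so the groups overlapped. No p-value is given for it, since the bins were selected on H3K27me3 itself and 2 strains against 2 could not give a p under 0.333.

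The distance to the marked bins did not move in 1 direction. The marked bins exceeded the intermediate bins by 1.78 in H3.3K27M and by 1.13 in mnDp10 H3.3K27M, against 0.91 in wild type and 1.01 in the mnDp10 strain. In H3-like K27M they exceeded them by 0.34 only, against 0.90 in H3-like. Marked bins kept a wide range of levels with K27M, as the plot of the 3 classes shows, and 45.2% of them had a deposited log2 above 0 in H3.3K27M, against 6.64% in H3-like K27M. Of the intermediate bins, 26 (0.696%) lay above 0 in H3-like K27M, against 11.2% in H3-like, and 134 (3.59%) did so in H3.3K27M. At the other end, 0.134% of the intermediate bins were at or below -2 in H3-like K27M, against 0.696% in H3-like, but 43.3% were so in H3.3K27M. In the H3-like control 88.0% of the bins met the thresholds again, and the deposited values of H3-like are from a track that the rule did not use. Its own thresholds selected 7244 bins, so the shared 3287 bins were 45.4% of that set.

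A related value is the mean of the input-subtracted signal over the intermediate bins less the mean over all bins of the same centres. It was -10.7 in H3-like K27M and -39.6 in mnDp10 H3.3K27M, against -31.2 in H3-like and -31.8 in the mnDp10 strain. The controls lay between the strains with K27M, so the groups overlapped, and the difference of their means was 6.34 scaled reads. In H3.3K27M the value was -50.7, against -36.5 in wild type. By this measure no common direction with K27M was seen, and its sign depended on the scale and on the strains included.

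On the deposited log2 scale, H3.3K27M minus wild type had a median of -1.11 over the intermediate bins, and 93.1% of them were lower in H3.3K27M. H3-like K27M minus H3-like had a median of -0.58, with 77.4% lower. In mnDp10 H3.3K27M minus mnDp10, on the scale of recovered reads, the median was -0.92, with 88.4% lower. These differences depend on the zero of the tracks. After centring every track on the median of all its bins, which added 1.12, 0.95 and 1.00 to them, they became 0.013, 0.37 and 0.09. After centring, the median of these bin-by-bin differences was therefore not below 0 in any of the 3 pairs. It is not the difference of the median levels. On the deposited scale these were -1.94 in H3.3K27M, beside a genome-wide median of -0.84, and -0.57 in wild type, beside 0.28. For comparison, the deposited differences were -0.57 in marked and 0.55 in depleted bins for H3.3K27M minus wild type, and -1.20 and 0.74 for H3-like K27M minus H3-like.

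Centring cannot alter a difference between 2 bins of the same track, and here the border bins give the plainest reading. Across the 782 border bins, the marked neighbour exceeded the depleted neighbour by a median of 0.24 in H3-like K27M (quartiles 0.08 and 0.41), 0.69 in H3.3K27M (0.39 and 1.00) and 0.24 in mnDp10 H3.3K27M (0.02 and 0.51). In the controls this step was 2.18 in H3-like (1.94 and 2.41), 2.72 in wild type (2.45 and 3.01) and 2.24 in the mnDp10 strain (1.82 and 2.58). The mean step was 0.39 ± 0.26 with K27M and 2.38 ± 0.29 without it (SD, n = 3 strains each), and 0.24 ± 0.003 and 2.21 ± 0.04 without the wild-type pair (SD, n = 2 strains each). The strains with K27M all lay below the controls. The step kept its sign in most border bins, being above 0 in 83.5% of them in H3-like K27M, 95.9% in H3.3K27M and 76.9% in mnDp10 H3.3K27M, against 100% in each control. On the deposited log2 scale it was 0.24 in H3-like K27M and 0.65 in H3.3K27M, against 2.75 in wild type and 2.10 in H3-like. The wild type chose these borders, so its deposited step had to exceed 2 at each of them. Its step and its share of 100% are therefore a description only. The means without the wild-type pair leave out its values, but they are still taken at the borders that the wild type chose.

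**Figure D2:**
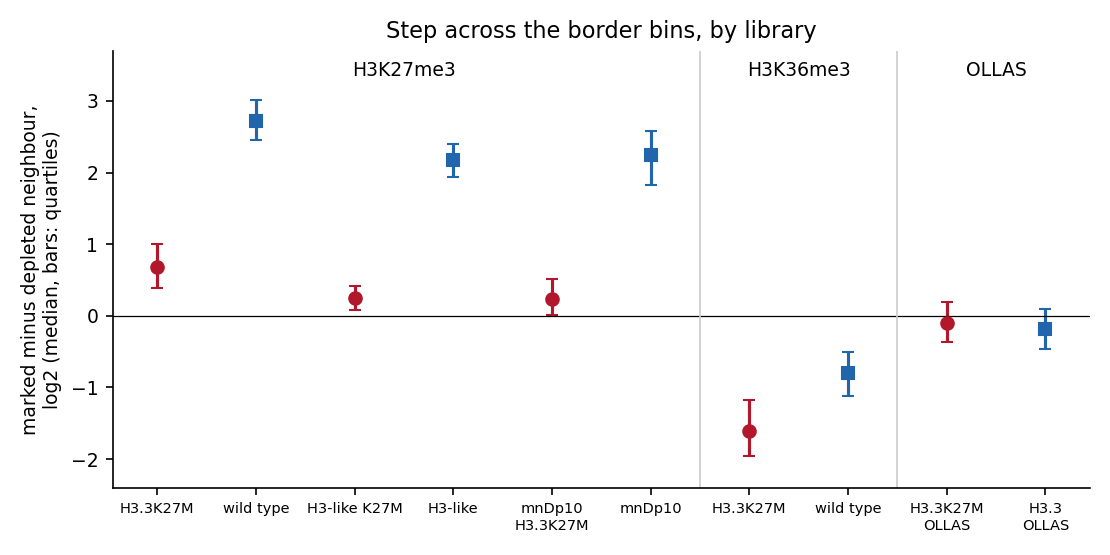
Difference between the marked and the depleted neighbour of the 782 border bins, in log2 IP over input, for each library, with every library that carries K27M left of its control. Points are medians and bars quartiles over border bins; the H3K27me3 step is 0.24 to 0.69 with K27M and 2.18 to 2.72 without it, while the H3K36me3 step is negative, at -1.61 in H3.3K27M and -0.80 in wild type.

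At the largest wild-type step of each chromosome, the step was smaller in each strain with K27M than in its control. On chromosome II the border bin at 7195001 to 7196000 had deposited log2 values of -1.08 in H3-like K27M and -1.88 in H3.3K27M, against -0.58 in wild type and -0.36 in H3-like. The bins on its marked and depleted side were at -1.31 and -2.404 in H3.3K27M, against 0.72 and -3.07 in wild type, so that the step was 1.09 in H3.3K27M and 3.79 in wild type. On chromosome III, at 8265001 to 8266000, the step was 0.27 in H3-like K27M and 0.68 in H3.3K27M, against 4.00 in wild type and 2.63 in H3-like. There the border bin itself was at -2.07 in H3.3K27M, against -0.30 in wild type. On chromosome IV, at 7654001 to 7655000, the step was 0.40 in H3-like K27M and 0.39 in H3.3K27M, against 3.88 in wild type and 2.43 in H3-like. On chromosome V, at 13712001 to 13713000, it was 0.18 in H3-like K27M, against 1.67 in H3-like, and 0.92 in H3.3K27M, against 3.698 in wild type. The strain mnDp10 H3.3K27M, on the scale of recovered reads, had steps of 0.32, 0.18, 0.16 and 0.28 at the same 4 bins (II to V), against 2.44, 2.78, 2.86 and 1.80 in the mnDp10 strain. These 4 bins were picked for their wild-type step, and a step of 1.67 or more was seen at each of them in both other controls.

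**Figure D3:**
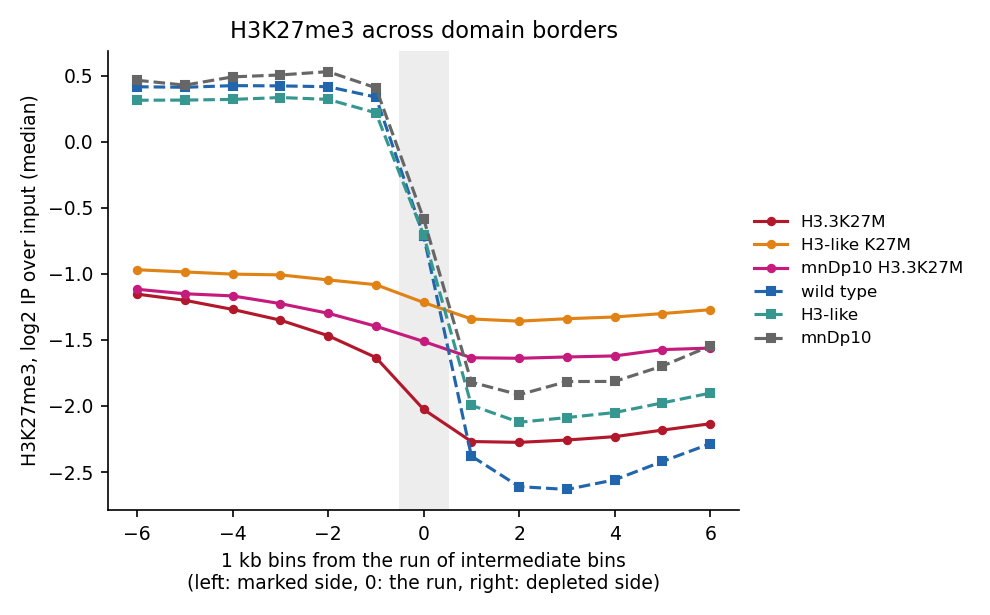
H3K27me3 across the 1331 runs that link a marked to a depleted bin, as the median log2 IP over input in each 1 kb bin, with the marked side left, the run at 0 and the depleted side right. Solid lines are strains with K27M and broken lines their controls; controls stay flat up to the border and then drop, while in H3.3K27M the median already declines on the marked side, with -1.15 at 6 kb and -1.63 at 1 kb from the run.

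With the 1331 linking runs aligned, the marked side was nearly flat in the controls, with medians 6 kb and 1 kb from the run of 0.42 and 0.34 in wild type, 0.31 and 0.22 in H3-like, and 0.47 and 0.41 in the mnDp10 strain. The level declined on the way to the border in H3.3K27M, with -1.15 at 6 kb and -1.63 at 1 kb, and in mnDp10 H3.3K27M, with -1.12 and -1.40. In H3-like K27M it was -0.97 and -1.08. The difference between 1 kb and 6 kb was thus -0.48, -0.28 and -0.11 in H3.3K27M, mnDp10 H3.3K27M and H3-like K27M, against -0.08 in wild type, -0.06 in the mnDp10 strain and -0.10 in H3-like. In H3-like K27M the decline differed little from that of its control. The wild-type bin at 1 kb had to lie above 0 by the choice of the runs, while the bin at 6 kb was free. On the depleted side, 1 kb from the run, the median was -2.27, -1.34 and -1.63 in H3.3K27M, H3-like K27M and mnDp10 H3.3K27M, against -2.38, -1.99 and -1.82 in wild type, H3-like and the mnDp10 strain.

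The neighbours of a run can belong to short domains, so the comparison was repeated for the 639 linking runs with 5 kb of 1 class on each side. Between the means of these flanks the step was 0.38 in H3-like K27M, 1.02 in H3.3K27M and 0.47 in mnDp10 H3.3K27M, against 2.47 in H3-like, 3.12 in wild type and 2.48 in the mnDp10 strain. It was above 0 at 96.4% of these borders in H3-like K27M, 100% in H3.3K27M and 95.3% in mnDp10 H3.3K27M, and at 100% in each control. For wild type this share was fixed by the choice of the runs. A step in the same direction was thus present at nearly all of them with K27M.

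**Figure D4:**
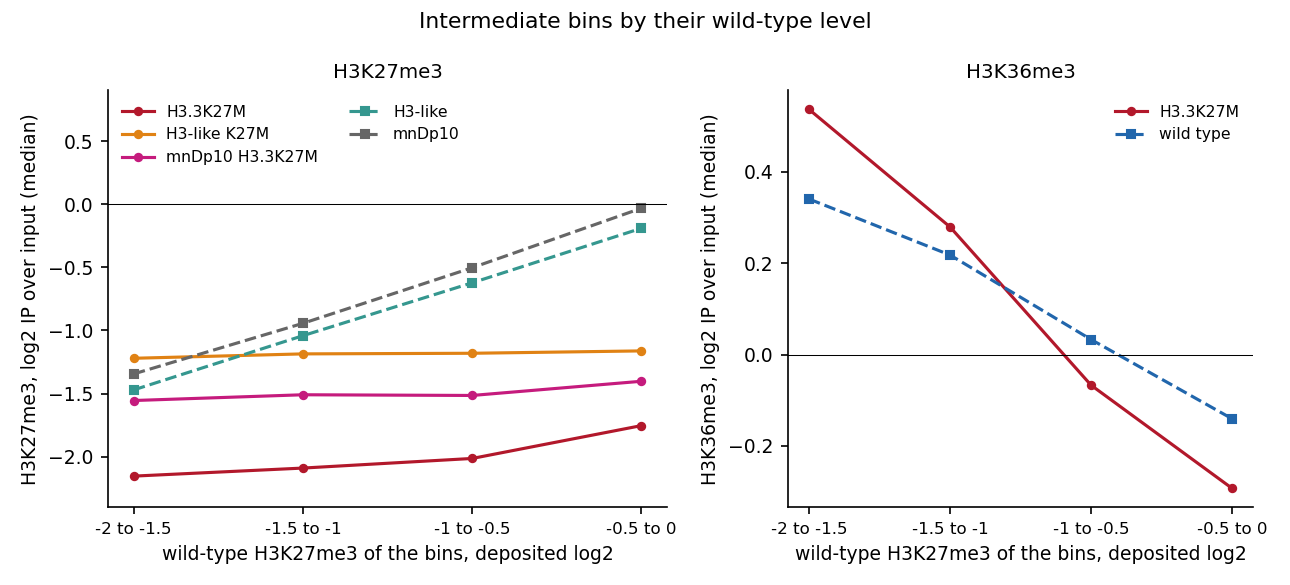
The intermediate bins in 4 classes of wild-type H3K27me3 (deposited log2, low to high), with the median H3K27me3 of the strains other than wild type (left panel) and the median H3K36me3 of H3.3K27M beside wild type (right panel), both as log2 IP over input. H3K27me3 of the controls climbs with the wild-type level (-1.47 to -0.19 in H3-like). That of the strains with K27M climbs less, from -2.15 to -1.75 in H3.3K27M and from -1.22 to -1.16 in H3-like K27M. H3K36me3 declines.

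Within the intermediate range the medians of the classes of wild-type level lay closer together in the strains with K27M than in the controls. From the lowest wild-type class (-2 to -1.5) to the highest (-0.5 to 0), the median H3K27me3 was -2.15, -2.09, -2.01 and -1.75 in H3.3K27M, a span of less than 0.5. In H3-like K27M it was -1.22, -1.19, -1.18 and -1.16, and in mnDp10 H3.3K27M -1.55, -1.51, -1.51 and -1.40. The controls spread over more than 1 unit, with -1.47, -1.04, -0.62 and -0.19 in H3-like and -1.34, -0.94, -0.50 and -0.03 in the mnDp10 strain. The wild type, by which the classes were made, had -1.64, -1.14, -0.61 and -0.05. The spread of single bins was not smaller throughout, since the 5th and 95th percentiles were -2.49 and -0.34 in H3.3K27M, against -1.79 and 0.12 in wild type, and -1.51 and -0.63 in H3-like K27M, against -1.73 and 0.11 in H3-like. Over the 3736 bins the correlation of the deposited log2 with that of wild type was r = 0.42 for H3.3K27M and r = 0.07 for H3-like K27M, against r = 0.89 for H3-like; on the scale of recovered reads it was r = 0.78 for the mnDp10 strain. These strains share no library, and the bins of a library are not independent. Between strains with K27M, H3.3K27M and mnDp10 H3.3K27M correlated with r = 0.81 (Spearman's rho = 0.60), and H3-like K27M and mnDp10 H3.3K27M with r = 0.35 (rho = 0.38).

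A fit across all bins asked which single bins differed between strains with and without K27M. It used the 2 pairs that the rule had not used, H3-like K27M and mnDp10 H3.3K27M against H3-like and the mnDp10 strain, and the input-subtracted signal. With limma and Benjamini-Hochberg adjustment over 100269 bins, 22.2% of all bins were lower with K27M and 11.8% higher at an adjusted p under 0.05. Of the 3736 intermediate bins, 710 were lower, a share of 19.0% that was close to and not above that of all bins, and 0 were higher (2 at an unadjusted p under 0.05). Of marked bins, 10121 of 22380 were lower and 211 higher. Of depleted bins, none passed in either direction by limma (47 higher and 0 lower at an unadjusted p under 0.05). The median difference was -28.4 scaled reads in intermediate, -63.2 in marked and 10.3 in depleted bins. By wild-type level, 663 of 1759 intermediate bins between -0.5 and 0 were called lower, and 46 of 615 between -1 and -0.5. Lower calls numbered 1 of 560 between -1.5 and -1, and 0 of 802 below that (2 lower and 1 higher at an unadjusted p under 0.05). These levels are the values that chose the bins, so this order is a description only. In the lowest class the tested controls were already low, with a median log2 of -1.47 in H3-like and -1.34 in the mnDp10 strain. That left less room for a lower call than in the higher classes. Border bins had 123 lower of 782, bins between a marked and an intermediate one 351 of 970, and bins between a depleted and an intermediate one 14 of 715.

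The calls rest on the zero of the tracks, on few strains and on how the strains are paired. With the genetic background as a block in the same fit, so that each strain with K27M was set against its own control, no bin of the 100269 was called in either direction by limma (906 intermediate bins lower and 2 higher at an unadjusted p under 0.05). With the tracks centred on their medians, 494 intermediate bins were higher and 2 lower, against 39.3% of all bins higher and 1.49% lower. After quantile normalization 0 were higher (212 at an unadjusted p under 0.05) and 22 lower, against 6.31% and 6.94% of all bins. Leaving out H3-like or the mnDp10 strain, each of which left a lone control that is assumed to vary like the strains with K27M, gave 0 calls over all bins in both cases (1004 and 618 intermediate bins lower at an unadjusted p under 0.05). Leaving out H3-like K27M gave 341 lower and 41 higher intermediate bins, against 17% and 17.5% of all bins. Leaving out mnDp10 H3.3K27M gave 434 lower and 0 higher (5 at an unadjusted p under 0.05), against 26.9% and 16.7% of all bins.

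The 3 intermediate bins with the largest called falls all lay between a marked and another intermediate bin. On chromosome III, the bin at 7425001 to 7426000 had -125.4 scaled reads in H3-like K27M and -144.7 in mnDp10 H3.3K27M, against 11.01 in H3-like and 107.8 in the mnDp10 strain. All values with K27M were below all those without it. The difference was -194.5 ± 38.2 (SE), with a limma adjusted p = 0.038 (0.027 to 0.145 over the alternatives). The alternatives counted here leave out fits with the wild-type pair, which chose the bins, and fits with 1 strain on a side. On chromosome III, the bin at 9131001 to 9132000 had -96.2 and -102.2 scaled reads in H3-like K27M and mnDp10 H3.3K27M, against 43.3 and 13.6 in H3-like and the mnDp10 strain. Its difference was -127.6 ± 14.9 (SE), with a limma adjusted p = 0.032 (0.027 to 0.078 over the same alternatives). On chromosome II, the bin at 8790001 to 8791000 had -93.7 and -87.9 scaled reads in H3-like K27M and mnDp10 H3.3K27M, against -15.3 and 41.9 in H3-like and the mnDp10 strain. Its difference was -104.0 ± 23.6 (SE), with a limma adjusted p = 0.047 (0.031 to 0.15 over the same alternatives). H3.3K27M, which was not in the fit, had -174.0, -107.2 and -88.8 scaled reads in these 3 bins, against -9.8, 3.7 and -4.6 in wild type. Subtracted signal grows with read number, and the first of them held 5378 input reads in H3.3K27M and 7895 in wild type, more than the median intermediate bin.

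The 4 longest runs had lower H3K27me3 in each strain with K27M than in its control, on the scale of recovered reads before centring. Centring, which adds 0.95 to 1.19 to these differences, turned the direction in some of them, as given with each run. The longest, 16 kb at 8113001 to 8129000 of chromosome III, linked a marked to a depleted bin. Its mean H3K27me3 was -1.36 in H3-like K27M, -2.06 in H3.3K27M and -1.64 in mnDp10 H3.3K27M, against -0.34 in H3-like, -0.11 in wild type and 0.01 in the mnDp10 strain, and 6 of its 16 bins were called lower by limma. After centring its differences were -0.08 in the H3-like pair, -0.77 in the wild-type pair and -0.65 in the mnDp10 pair. The OLLAS signal there was 0.51 in H3.3K27M OLLAS and 0.46 in H3.3 OLLAS. A 14 kb run at 8890001 to 8904000 of chromosome II was flanked by a depleted bin on each side. Its H3K27me3 was -1.29 in H3-like K27M, -2.15 in H3.3K27M and -1.77 in mnDp10 H3.3K27M, against -0.93 in H3-like, -1.36 in wild type and -1.23 in the mnDp10 strain. After centring all 3 of its differences were positive, at 0.59, 0.40 and 0.46. A 14 kb run at 11624001 to 11638000 of the same chromosome was flanked by a marked bin on each side. Its H3K27me3 was -1.70, -1.37 and -1.47 in H3.3K27M, H3-like K27M and mnDp10 H3.3K27M, against -0.17 in wild type, -0.47 in H3-like and -0.35 in the mnDp10 strain. Centred, these differences were -0.34, 0.04 and -0.12. Both runs of chromosome II had OLLAS signals far above the median of 0.22 of the intermediate bins, at 0.88 and 0.82 in H3.3K27M OLLAS, against 0.90 and 0.84 in H3.3 OLLAS. The fourth run, 14 kb at 5107001 to 5121000 of chromosome III, was unlike them, with OLLAS at -0.11 in H3.3K27M OLLAS and -0.14 in H3.3 OLLAS and with H3K36me3 at 0.98 in H3.3K27M and 0.55 in wild type. Its H3K27me3 was -2.30, -1.42 and -1.73 in H3.3K27M, H3-like K27M and mnDp10 H3.3K27M, against -0.20, -0.33 and -0.80 in wild type, H3-like and the mnDp10 strain. Centred, these differences were -0.91, -0.13 and 0.06.

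Chromosome V had the largest share of intermediate bins above 0 in both strains with K27M and a deposited log2 track. In H3.3K27M the deposited log2 was above 0 in 104 of 880 bins on V (11.8%), but in 18 of 840 on II (2.14%), 3 of 951 on III (0.315%) and 9 of 1065 on IV (0.845%). Of the marked bins in H3.3K27M, 82.1% lay above 0 on V, but 28.7% on II, 6.72% on III and 28.0% on IV. In H3-like K27M the intermediate bins above 0 numbered 10 on V (1.14%), 4 on II, 7 on III and 5 on IV. The median difference H3.3K27M minus wild type was -0.63 on V, -1.21 on II, -1.43 on III and -1.10 on IV on the deposited scale, and mnDp10 H3.3K27M minus mnDp10 was -0.55 on V, -1.03 on II, -1.14 on III and -0.95 on IV. For H3-like K27M minus H3-like the chromosomes were closer, with -0.51 on V, -0.67 on II, -0.63 on III and -0.55 on IV. The shares above 0 depend on the zero of a track, whereas the gaps between the median differences of the chromosomes do not. All rest on 1 library per strain and were not tested.

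Bins with both neighbours of the same class, dips between marked bins and peaks between depleted bins, were read apart from the borders. Of the 281 dips, 49.1% lay below the mean of their marked neighbours in H3-like K27M and 58.4% in mnDp10 H3.3K27M, against 75.4% in H3-like and 66.5% in the mnDp10 strain, and 62.6% did so in H3.3K27M. A bin unrelated to its neighbours would lie below their mean about as often as above it. With K27M the median difference to the neighbours was 0.005 in H3-like K27M, -0.09 in H3.3K27M and -0.06 in mnDp10 H3.3K27M, against -0.15 in H3-like and -0.19 in the mnDp10 strain. The 99 peaks between depleted bins exceeded their neighbours by 0.04 in H3-like K27M, 0.08 in H3.3K27M and 0.05 in mnDp10 H3.3K27M, against 0.18 in H3-like and 0.21 in the mnDp10 strain. Both kinds of local feature were weak already in the controls that did not choose them, next to 0.61 for peaks and -0.25 for dips in wild type, which did.

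**Figure D5:**
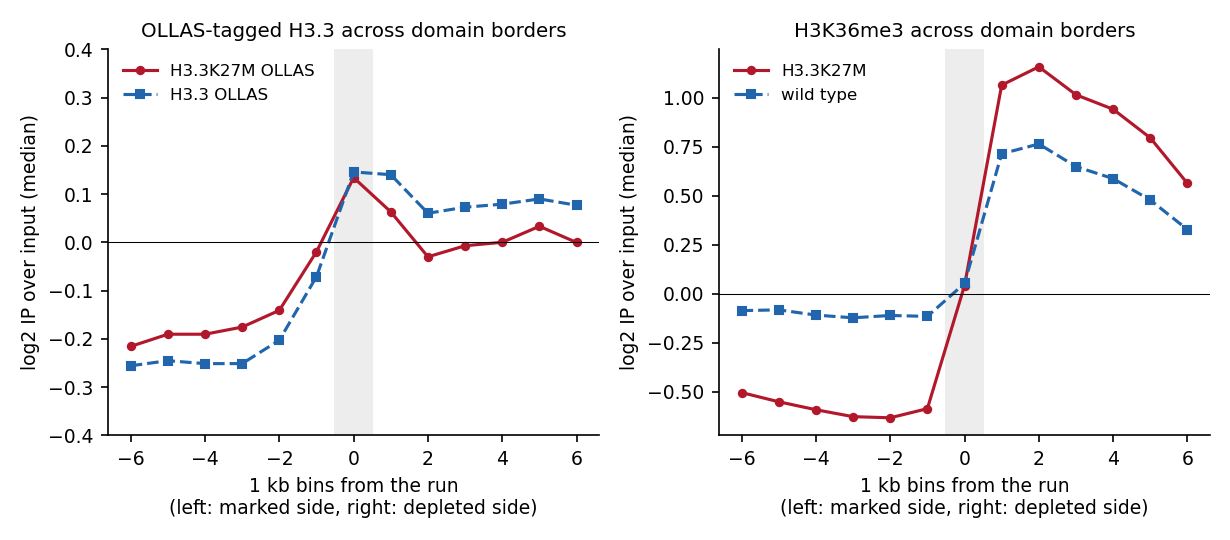
OLLAS-tagged H3.3 (left panel; H3.3K27M OLLAS and H3.3 OLLAS) and H3K36me3 (right panel; H3.3K27M and wild type) across the 1331 linking runs, as the median log2 IP over input in each 1 kb bin, marked side left and depleted side right. The OLLAS signal is highest in the run, at 0.13 and 0.15, with 0.06 and 0.14 in the next bin of the depleted side. H3K36me3 is highest 2 kb into the depleted side, at 1.16 in H3.3K27M and 0.76 in wild type.

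H3.3 itself was present in the intermediate bins at a higher level than in marked bins, with or without K27M, and by a smaller margin at a higher level than in depleted bins. The median OLLAS signal in them was 0.22 in H3.3K27M OLLAS and 0.22 in H3.3 OLLAS. In marked bins it was -0.38 in H3.3K27M OLLAS and -0.45 in H3.3 OLLAS, and in depleted bins 0.06 and 0.17. Across the linking runs the median of the run was 0.13 in H3.3K27M OLLAS and 0.15 in H3.3 OLLAS. On the marked side, 6 kb away, it was -0.22 and -0.26. On the depleted side it was 0.06 and 0.14 at 1 kb, and -0.03 and 0.06 at 2 kb. The run of H3.3 OLLAS was thus nearly level with the next depleted bin. At single borders the peak was less regular. The median of the 782 border bins was 0.09 in H3.3K27M OLLAS and 0.10 in H3.3 OLLAS, that of their depleted neighbours 0.04 and 0.11, and that of their marked neighbours -0.03 and -0.07, so that in H3.3 OLLAS the border bins did not exceed the depleted side. Of the 639 borders with clean flanks, 320 (50.1%) had a run above both flanks in H3.3K27M OLLAS and 306 (47.9%) in H3.3 OLLAS. Of the 782 border bins, 34.4% exceeded both neighbours in H3.3K27M OLLAS and 33.6% in H3.3 OLLAS, next to 26.8% and 26.2% of all centre bins.

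Mutant and normal tagged H3.3 had nearly the same level in the intermediate bins and varied together over them (r = 0.91, n = 3736). The deposited log2 had a median difference of 0.03 between H3.3K27M OLLAS and H3.3 OLLAS, which became 0.012 after centring, and on the input-subtracted scale the difference was -2.07 scaled reads. In marked bins it was 0.09 and in depleted bins -0.07 on the deposited scale, so the contrast between these classes was smaller for the mutant. The median H3K27me3 was slightly lower in intermediate bins with much tagged H3.3 than in those with little. In 4 groups of 934 bins from low to high H3.3 OLLAS, the median H3K27me3 was -1.08, -1.17, -1.20 and -1.25 in H3-like K27M, -1.88, -1.96, -1.97 and -1.97 in H3.3K27M, and -1.44, -1.48, -1.495 and -1.497 in mnDp10 H3.3K27M. The controls also declined, with -0.47, -0.50, -0.53 and -0.62 in H3-like and -0.28, -0.41, -0.49 and -0.60 in the mnDp10 strain. The share of bins above 0 did not follow the median throughout. From the lowest to the highest group it rose from 2.89% to 6.85% in H3.3K27M and from 1.93% to 6.10% in mnDp10 H3.3K27M. It fell from 1.18% to 0.43% in H3-like K27M, from 15.0% to 6.53% in H3-like and from 35.2% to 15.6% in the mnDp10 strain. Over the intermediate bins, H3.3K27M OLLAS and H3K27me3 of mnDp10 H3.3K27M were correlated with r = 0.03, while over the 22380 marked bins r was -0.45. On the deposited log2 scale the correlation of H3.3K27M OLLAS over the intermediate bins was r = -0.20 with H3K27me3 of H3-like K27M and r = 0.05 with that of H3.3K27M. The oncohistone of H3-like K27M was not read here, and the authors describe a wider placement for it than for H3.3. The OLLAS levels are thus no measure of local oncohistone in that strain. The tagged and untagged strains are separate worms, and bins of 1 library are not replicates.

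H3K36me3 ran opposite to H3K27me3 along the border, and its step was larger in H3.3K27M than in wild type, with 1 library each. The paper reports no change of this mark in H3.3K27M, in its distribution over the genome or in its average occupancy. The gap between marked and depleted bins of the whole centres was wider in H3.3K27M too. Input reads per intermediate bin had a median of 249.5 in H3.3K27M and 409 in wild type. A difference in enrichment between the libraries was not tested. In the intermediate bins the median was 0.01 in H3.3K27M and 0.04 in wild type, between marked bins at -0.51 in H3.3K27M and -0.07 in wild type and depleted bins at 1.10 and 0.72. Across the 782 border bins, the marked minus the depleted neighbour was -1.61 in H3.3K27M (quartiles -1.96 and -1.17) and -0.80 in wild type (-1.12 and -0.50). It was above 0 in 2.69% of these bins in H3.3K27M and 7.42% in wild type. In wild type 304 border bins (38.9%) lay below both neighbours, against 28.8% of all centre bins. In H3.3K27M 167 (21.4%) did so, against 27.1% of all centre bins. At the 639 borders with clean flanks the step was -1.63 in H3.3K27M and -0.80 in wild type. The border bin was nearer to its marked than to its depleted side in both, with the marked neighbour minus the border bin at a median of -0.48 in H3.3K27M and -0.09 in wild type, and the border bin minus the depleted neighbour at -1.06 and -0.69. In the aligned runs the median peaked 2 kb into the depleted side, at 1.16 in H3.3K27M and 0.76 in wild type. On the marked side at 6 kb it was -0.51 in H3.3K27M and -0.09 in wild type.

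By wild-type H3K27me3, the classes from -2 to -1.5 up to -0.5 to 0 had a median H3K36me3 of 0.54, 0.28, -0.07 and -0.29 in H3.3K27M, against 0.34, 0.22, 0.03 and -0.14 in wild type. The median difference of the classes was 0.19, 0.10, -0.04 and -0.03, and 0.44, 0.35, 0.21 and 0.22 after centring, so the sign in the upper classes depends on the zero of the tracks. The median difference over all intermediate bins was 0.05 and had no replicate to judge it by; it was 0.30 after centring, 4.23 scaled reads on the input-subtracted scale and 0.15 in the deposited 10 kb tracks. Local H3.3 and H3K36me3 varied in opposite ways. The group of 934 bins with the least H3.3 OLLAS had a median H3K36me3 of 0.22 in H3.3K27M and 0.20 in wild type, and the group with the most had -0.43 in H3.3K27M and -0.34 in wild type. Over the intermediate bins the correlation of OLLAS with H3K36me3 was r = -0.29 for H3.3K27M OLLAS with H3.3K27M and r = -0.33 for H3.3 OLLAS with wild type, across bins that are not independent.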

How the data were processed

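Native ChIP-seq tracks of 8 strains were analysed (10 IP and 10 input libraries, 1 per group, grouped by the strain, genotype and antibody in the labels). Reads were mapped by the authors to WBcel215 with Novoalign (default settings). They took the maximum number of reads in each bin, scaled all files to the same read number and pooled the replicates that passed their quality check; how many is not stated. The H3K27me3 antibody is described as recognising H3K27me2/me3. The deposited log2 tracks hold log2 of IP over input in 1 kb or 10 kb bins, and the deposited input-subtracted signal tracks hold scaled IP minus scaled input in 100 bp or 1 kb bins. A further 4 per-sample tracks could be tied to none of the described libraries and stayed unused. H3.3K27M OLLAS is thus the only readout of the oncohistone, and that of H3-like K27M was not read.

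Whole IP and input reads were recovered from the 100 bp signal deposited by the authors (tolerance 2e-08 scaled reads, scaled input up to 1500; 99.98% to 99.99% of bins solved; tested on simulated data), summed over 1 kb and turned into log2 ratios after adding 1 scaled read to each. Neighbouring 100 bp bins can share reads, so these sums measure relative depth and not independent molecules, and no counting interval is given. The 1 kb signal is the mean of 10 bins of 100 bp. Bins with an H3K27me3 value of exactly 0 were in none of the 3 classes.

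Strains served as replicates. limma 3.58.1 (R 4.3.3; lmFit, eBayes, Benjamini-Hochberg over 100269 nuclear bins, adjusted p under 0.05) was run on the signal and tested on simulated data; bins without variance were offset by limma. The p-values measure only the spread between the 4 strains, and their mutations differ. Other values were computed with Python 3.11.15 and are medians over bins without a test. An exact permutation test over strains had been set for the members' mean within the centres; its p is not printed, because members were selected on the same mark. Named regions were the 4 longest runs, the border bin of each chromosome with the largest wild-type difference between its neighbours, and the 3 largest called rises and falls that went one way in both pairs (no rise was called). The intermediate bins, classes and comparisons were chosen with earlier results of these data known.

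Alternatives were other thresholds, track centring, quantile normalization, the log2 scale, an input minimum of 10 reads, the wild-type pair, a background block and leaving out pairs or strains. Leaving out single strains, the position of the bins between the classes with its alternatives, and 3 further fits were added after seeing the data; leaving out pairs was not.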

Additional observations from a re-analysis of the deposited data

Results flagged for a closer look

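In some subsets of the intermediate bins, the difference with K27M had opposite signs in the pairs that have deposited log2 tracks. In the bins with a wild-type level between -2 and -1.5, the median H3K27me3 difference was -0.36 for H3.3K27M minus wild type and 0.23 for H3-like K27M minus H3-like. In the 99 bins between depleted neighbours it was -0.24 for H3.3K27M minus wild type and 0.48 for H3-like K27M minus H3-like. The difference between the pairs was not tested, each pair has 1 library per strain, and the wild-type values chose the bins. Depleted bins, which had a difference of 0.55 in the first pair and 0.74 in the second, did not show opposite signs. The opposite signs depend on the zero of the tracks: after centring each track on its median, the differences were 0.76 for H3.3K27M minus wild type and 1.19 for H3-like K27M minus H3-like in the low-level bins, and 0.88 and 1.43 in the bins between depleted neighbours.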

How the results depend on the processing

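In the steps across the border, each strain with K27M stayed below each control under both alternatives run for them, the input-subtracted scale and borders defined on the H3-like track. With borders defined on the H3-like track the step was 0.29 in H3-like K27M and 0.30 in mnDp10 H3.3K27M, against 2.93 in wild type, 2.38 in H3-like and 2.46 in the mnDp10 strain. There H3-like chose the borders, so its own step is a description only. On the input-subtracted scale the mean position was 30.0% with K27M and 49.3% without it, but the strains overlapped, with H3-like K27M at 48.5%, against 47.4% in H3-like. The number of intermediate bins was 1716 with thresholds of -1.5 and -0.25 and 7244 by the H3-like track, and that of border bins was 1911 with neighbours up to 3 bins away.

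Calls for single bins depended on nearly every choice, in the intermediate bins as in all bins, whose shares follow as lower and higher in parentheses. Lower and higher intermediate bins numbered 1760 and 0 with the wild-type pair (33.0% and 19.5%), 1454 and 0 with that pair and the strain background as a replicate block, which pairs by background (30.1% and 19.1%), and 0 and 0 with the block in 2 strains against 2 (0% and 0%). They numbered 2 and 494 after centring (1.49% and 39.3%), 22 and 0 after quantile normalization (6.94% and 6.31%), 1393 and 14 on the log2 scale (26.4% and 14.6%), 2033 and 7 on the log2 scale with the wild-type pair (33.8% and 19.6%), and 15 and 731 on the centred log2 scale (1.62% and 47.3%). Leaving out pairs or strains gave 0 to 1453 lower and 0 to 61 higher; 1453 lower and 61 higher came without the H3-like pair (29.3% and 23.3%). The labels give no replicate numbers that pair samples, so the block rests on genotype.

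The mean of the bins within the centres differed by 6.34 scaled reads between strains with and without K27M and reversed to -0.068 on the log2 scale and to -0.51 with the wild-type pair; it was 37.5 with medians over bins, and leaving out pairs from that comparison gave -11.0 to 3.13. Centring turned the difference of H3.3K27M and wild type to 0.013 and that of H3-like K27M and H3-like to 0.37; with the stricter thresholds they were -1.18 and -0.51. The OLLAS difference was 0.012 after centring and -2.07 on the subtracted scale, and that of H3K36me3 was 0.30 after centring and 0.15 in 10 kb bins. The cause of these differences was not tested. Bins in the mnDp10 and H3K36me3 tracks had the fewest input reads.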
